A study of Gallus gallus with 9 samples.

Results

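The genes followed here are the splicing factor genes of the chicken, taken as every gene whose array annotation symbol starts with SRSF, SFRS, HNRNP, HNRP, SF3, SNRP or PRPF. They number 50 of 13009 genes that the annotation names with a single symbol, namely 13 HNRNP, 11 SRSF, 10 SNRP, 9 PRPF, 5 SF3B and 2 SF3A genes. They are represented by 133 of 38439 probe sets, and each gene was read from its probe set with the highest mean signal over the blood arrays. Circulating blood of chick embryos had been separated on a density gradient into a light fraction depleted of red blood cells (nRBC) and a heavy fraction of red blood cells (RBC), at embryonic day 6 (E6) and day 4 (E4), with 2 arrays per stage and fraction. Each blood array held RNA pooled from many untreated embryos, and 1 further array held whole E6 heart, the tissue from which the blood was drawn. Both fractions are mixtures, so that fewer cells of a type and less RNA per cell cannot be told apart.

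Introns are removed from pre-mRNA by the spliceosome, which is assembled from small nuclear ribonucleoproteins (snRNPs). The SNRP genes encode proteins of these particles, including the Sm proteins that form a ring on the snRNA, while SF3A and SF3B are complexes of the U2 snRNP that help it to engage the branch point. Most PRPF proteins belong to the U4/U6.U5 tri-snRNP or act in the activated spliceosome. SR proteins (SRSF) and hnRNP proteins bind the pre-mRNA itself and influence which splice sites are used. Avian red blood cells keep their nucleus, unlike those of mammals, and the primitive red cells that circulate in the early embryo are still transcribing.

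The array reports a signal for each probe set and a detection call, Present where its probes exceed their mismatch controls. Signals are given below as log2 values after quantile normalization over the 8 blood arrays, with the heart array mapped onto the same quantiles. On this scale a difference of 1 is a doubling, and signals of different probe sets are not compared as amounts of RNA. Correlations over all probe sets were 0.87 to 0.90 between nRBC arrays, 0.82 to 0.86 between RBC arrays and 0.76 to 0.83 across the fractions. From 22.4% to 36.0% of all probe sets were called Present on a blood array. E6 nRBC replicate 1 had the highest ratio of 3′ to 5′ signal of GAPDH, a control for intact RNA, at 12.7 against 4.22 to 5.99 on the other nRBC arrays, while the RBC arrays had 9.44 to 11.1. Its ratio for beta-actin was 12.4, against 2.55 to 4.50 on the other nRBC arrays and 4.39 to 5.75 on the RBC arrays. Apart from this array, the GAPDH ratio was higher on every RBC array than on every nRBC array. Its part in the differences between the fractions was not tested.

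Transcripts of nearly all splicing factor genes were detected in both fractions. Of the 50 genes, 42 were called Present on all 8 blood arrays, against 32.2% of the 13009 genes read in the same way from their brightest probe set, 17.2% of all probe sets and 37 of the 83 other probe sets of the 50 genes. All 4 nRBC arrays called 45 Present and all 4 RBC arrays 42, against 45.5% and 33.2% of the 13009 genes. Between 43 and 47 were Present on a single blood array, with the lowest number on E6 RBC replicate 2, and 48 were Present in the heart. SNRPB2, which encodes a U2 snRNP protein, and SNRPF, which encodes an Sm protein, were Present on no blood array, against 33% of the 13009 genes and 52.2% of all probe sets.

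The remaining 6 genes were Present on some blood arrays. PRPF4, a U4/U6 snRNP protein, was Present on 2 nRBC arrays and on no RBC array, with log2 signals of 4.92 and 4.43 on the E6 nRBC arrays and 5.23 and 5.45 on the E4 nRBC arrays, against 4.58 and 2.37 on the E6 RBC arrays and 4.75 and 4.65 on the E4 RBC arrays. Its nRBC mean was 1.90-fold above the RBC limits. A limit is the higher of the lowest Present signal on an array and the gene's own signal there. For PRPF4 the limits were its own signals, and without E6 RBC replicate 2 its difference was 0.35 (log2). SRSF4, an SR protein gene, was Present on 1 RBC array and on no nRBC array. Here the RBC mean was 1.57-fold above the nRBC limits, but without E4 nRBC replicate 2 the difference (nRBC minus RBC) was -0.18. Neither fold is therefore a lower bound. Neither gene passed the test between fractions (PRPF4 adjusted p = 0.421, SRSF4 adjusted p = 0.519, limma over all probe sets).

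**Figure D1:**
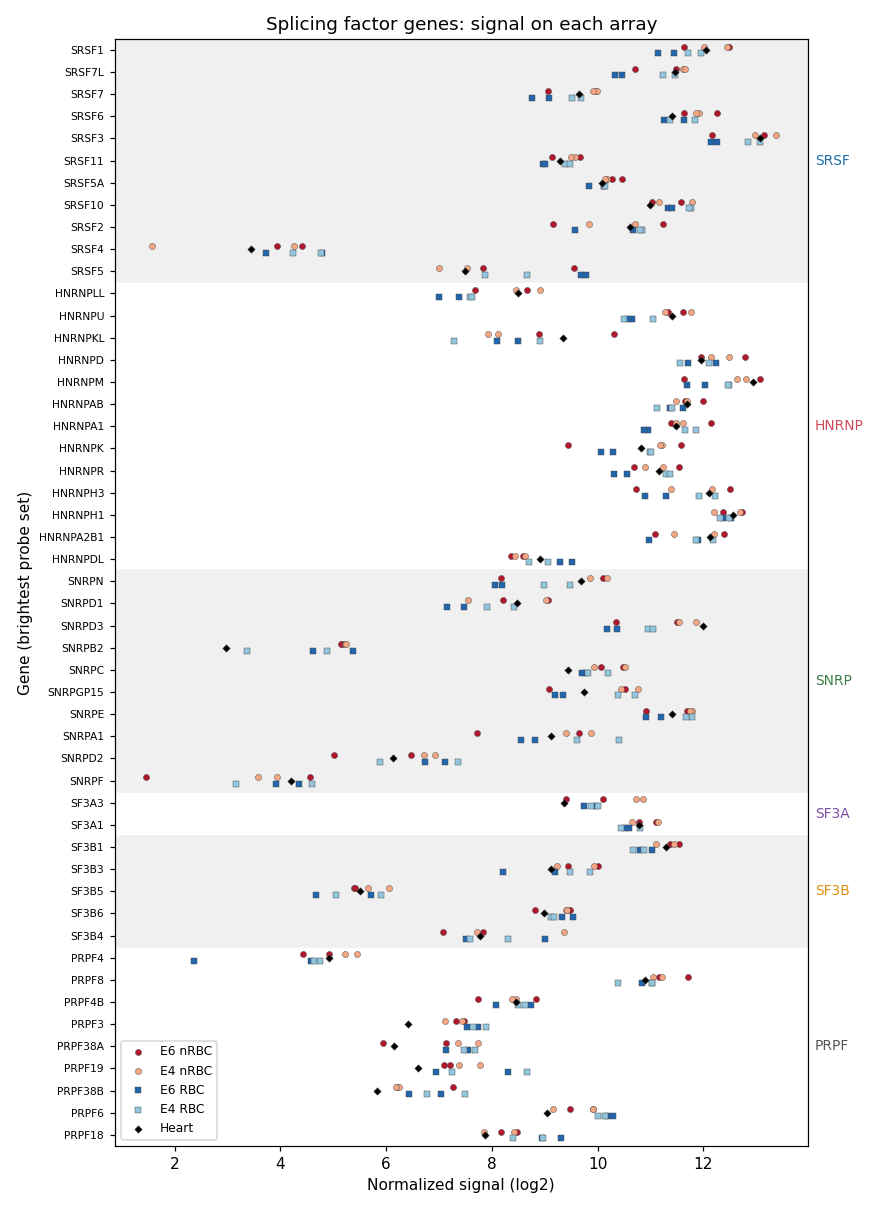
Normalized log2 signal (x axis) of the brightest probe set of each of the 50 splicing factor genes (y axis, grouped by family), with 1 symbol per array for E6 and E4 nRBC, E6 and E4 RBC and the heart. For most genes the symbols of all groups overlap, and SNRPB2, SNRPF, SRSF4 and PRPF4 lie at the low end, where few or no arrays called them Present.

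No splicing factor gene differed between nRBC and RBC at an adjusted p under 0.05 in limma with 4 arrays per fraction, where 5.37% of all probe sets passed (4.56% higher and 0.809% lower in nRBC). At an unadjusted p under 0.05, 2 of the 50 genes were higher in nRBC and 0 were lower, against 10.2% and 9.39% of all probe sets. The differences of the 50 genes ran between -1.01 for SRSF5 and 1.03 for HNRNPLL, with a median of 0.28, while the median of all probe sets was -0.20. This median rests on the brightest probe sets, and was -0.0115 when each gene was given the median of its probe sets. In 48 genes (96%) the difference was smaller than 1 in size, as it was for 69.9% of all probe sets and 83.2% of the 6595 probe sets Present on every blood array. The 95% intervals had a median half-width of 0.91, so that only 6 genes had an interval within 1 of zero on either side, although 45 had one within 2.

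**Figure D2:**
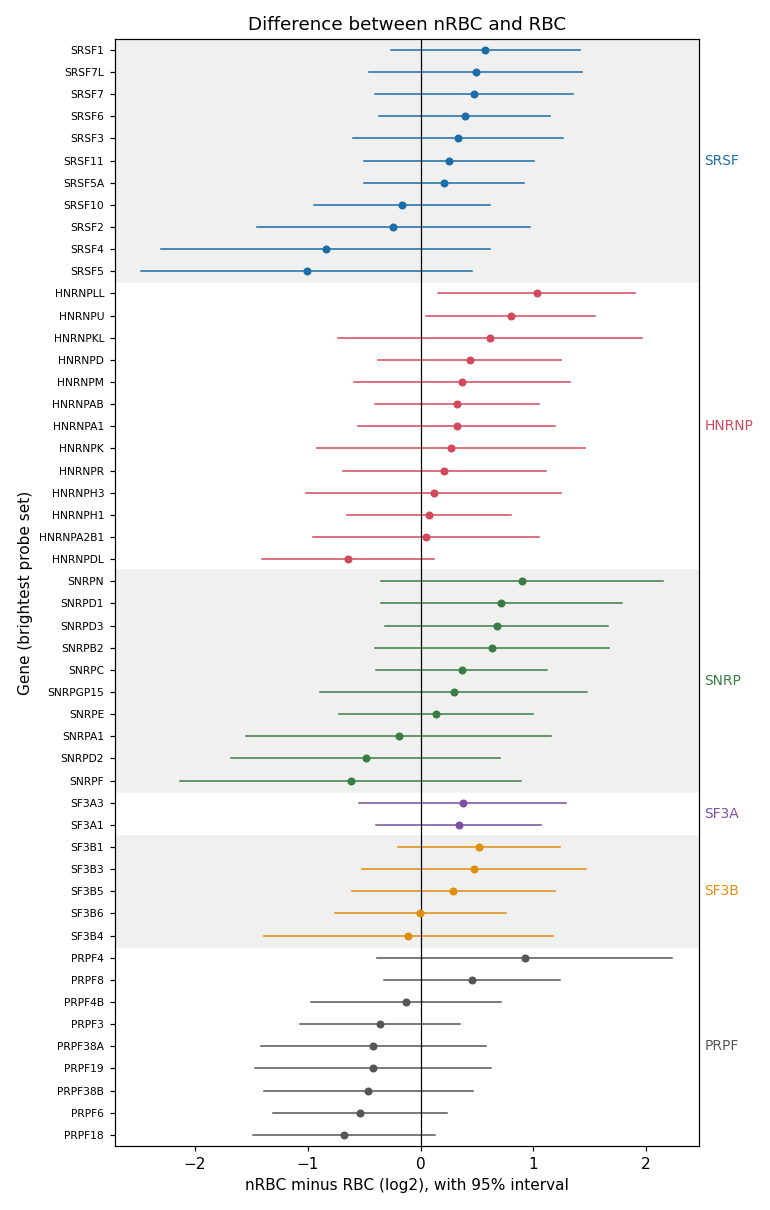
Difference between nRBC and RBC (x axis, log2, 4 arrays each) of the 50 splicing factor genes (y axis, grouped by family), with points for the estimate and bars for the 95% interval of the limma fit. Only the bars of HNRNPLL and HNRNPU do not reach 0, and neither gene passed after adjustment over all probe sets.

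A positive difference was found in 41.0% of all probe sets and in 35.9% of those Present on every blood array, beside which the family counts are set. Among the hnRNP genes, 12 of 13 had a positive difference, with a family median of 0.32. Under median scaling it was 0.10 (8 of 13 positive), where the median of all probe sets was -0.25. By stage the family median was 0.49 at E6 (12 of 13 positive) and 0.05 at E4 (7 of 13 positive). HNRNPLL, which in mammals regulates the alternative splicing of CD45 in lymphocytes, had signals of 7.68 and 8.67 on the E6 nRBC arrays and 8.90 and 8.46 on the E4 nRBC arrays, against 7.38 and 7.0 on the E6 RBC arrays and 7.58 and 7.62 on the E4 RBC arrays. All nRBC arrays were above all RBC arrays, with a difference of 1.03 ± 0.39 (SE, adjusted p = 0.185). HNRNPU, an abundant nuclear protein that binds RNA and chromatin, had 11.61 and 11.32 on the E6 nRBC arrays and 11.27 and 11.76 on the E4 nRBC arrays, against 10.64 and 10.57 on the E6 RBC arrays and 10.50 and 11.05 on the E4 RBC arrays. Here too the fractions did not overlap (difference 0.80 ± 0.33, adjusted p = 0.225). HNRNPDL, the neighbour of HNRNPD on chromosome 4 with no protein-coding gene between them, was the single hnRNP gene with a negative difference, at 8.35, 8.59, 8.63 and 8.43 on the nRBC arrays and 9.28, 9.52, 8.71 and 9.05 on the RBC arrays. All of its nRBC arrays were below all RBC arrays (difference -0.64 ± 0.34, adjusted p = 0.337), but its second probe set, also Present on every blood array, had the opposite sign (0.19 ± 0.40).

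Of the 83 probe sets of the 50 genes that were not the brightest of their gene, 2 were higher in nRBC (2.41%) and 0 were lower, against 4.56% and 0.809% of all probe sets, so that the share called was not above that of the whole array. They belong to HNRNPU and HNRNPLL. The second probe set of HNRNPU had 8.44, 8.58, 8.76 and 8.80 on the nRBC arrays, against 6.95, 7.12, 7.03 and 7.14 on the RBC arrays, a difference of 1.58 ± 0.31 (adjusted p = 0.0186). The second probe set of HNRNPLL had 6.28, 6.93, 6.92 and 6.92 on the nRBC arrays, against 4.77, 4.78, 5.31 and 5.67 on the RBC arrays, a difference of 1.63 ± 0.37 (adjusted p = 0.0375). It was Present on 7 of the 8 blood arrays. With single arrays left out, the HNRNPU probe set passed in 6 of 8 fits, failing without E4 nRBC replicate 1 (adjusted p = 0.0663) or replicate 2 (0.0632). That of HNRNPLL passed in 2 of 8, without E6 nRBC replicate 1 or E4 RBC replicate 2, and its adjusted p was otherwise up to 0.108, with differences of 1.51 to 1.81. Both calls were also lost without quantile normalization (adjusted p = 0.125 for HNRNPU and 0.158 for HNRNPLL), with the replicate number as a block (0.075 and 0.0828) and in a fit of only the 5 blood arrays whose low signals were most numerous (0.192 and 0.224), and that of HNRNPLL with the array scale as a block (0.0512). The probe set next in brightness of each gene had a positive difference that did not pass, of 0.78 ± 0.45 in HNRNPU (adjusted p = 0.375) and 1.74 ± 0.44 in HNRNPLL (adjusted p = 0.0557). In the heart the second probe sets had 9.43 for HNRNPU and 6.86 for HNRNPLL. The marker genes of other cell types that moved with the fraction are given with the splicing regulators below, and their part in these differences was not tested.

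Probe sets of a gene did not always point the same way. Among 22 genes with more than 1 probe set Present on all blood arrays, the differences between fractions had the same sign in 8 genes and opposite signs in 14, and the median spread between a gene's probe sets was 0.52. The largest spread, 1.85, was in HNRNPA1, an hnRNP that often represses exon inclusion. Its 4 detected probe sets had differences, from the brightest down, of 0.32 ± 0.39, 0.19 ± 0.65, 1.70 ± 0.67 and -0.14 ± 0.37 (adjusted p = 0.701, 0.906, 0.201 and 0.872). PRPF4B, a kinase of the tri-snRNP, had -0.13 ± 0.37 in its brightest probe set, 0.76 ± 0.37 in the next and -1.09 ± 0.33 in the one after, with adjusted p-values of 0.887, 0.306 and 0.109.

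**Figure D3:**
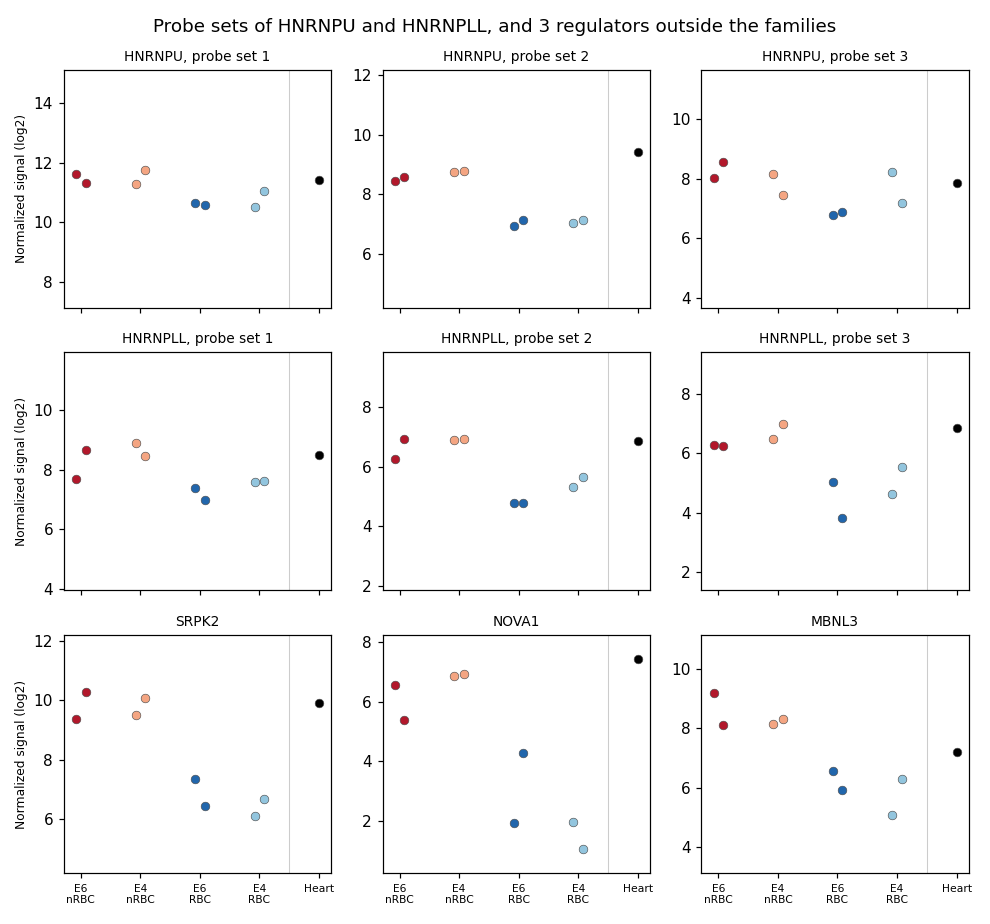
Normalized log2 signal (y axis, each panel spanning 8 log2 units) on each array of E6 nRBC, E4 nRBC, E6 RBC, E4 RBC and heart (x axis), for the 3 brightest probe sets of HNRNPU and HNRNPLL and for the genes SRPK2, NOVA1 and MBNL3. In every panel except that of HNRNPU probe set 3, all nRBC points lie above all RBC points.

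In the SR protein family 7 of 11 genes had a positive difference, with a median of 0.26, and none passed. SRSF5 had the widest range of the SR protein genes that were Present on every blood array, with 9.56 and 7.83 on the E6 nRBC arrays and 7.01 and 7.54 on the E4 nRBC arrays, against 9.78 and 9.68 on the E6 RBC arrays and 8.66 and 7.86 on the E4 RBC arrays. The fractions overlapped (difference -1.01 ± 0.65, adjusted p = 0.433), and both E6 RBC arrays were above every E4 blood array. SRSF1, the first SR protein to be described, had 11.63 and 12.48 on the E6 nRBC arrays and 12.02 and 12.44 on the E4 nRBC arrays, against 11.44 and 11.14 on the E6 RBC arrays and 11.96 and 11.71 on the E4 RBC arrays (difference 0.58 ± 0.37, adjusted p = 0.435). SRSF7 and SRSF7L, which lie near each other on chromosome 3 with 1 protein-coding gene between them, had differences of 0.47 and 0.49. The probe sets of SRSF7L that were Present on all blood arrays were, however, spread over 1.11 in this difference. SRSF5A was the single SR protein gene with all nRBC arrays above all RBC arrays, by a difference of 0.21 ± 0.31 only.

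For the snRNP proteins the family median was 0.33, and 7 of 10 genes had a positive difference. SNRPN, an Sm protein gene whose mammalian counterpart is active mainly in the brain, had 8.18 and 10.09 on the E6 nRBC arrays and 9.85 and 10.18 on the E4 nRBC arrays, against 8.20 and 8.06 on the E6 RBC arrays and 8.98 and 9.47 on the E4 RBC arrays. E6 nRBC replicate 1 was at the level of the E6 RBC arrays, and the difference of 0.90 ± 0.55 (adjusted p = 0.411) was 1.36 without it (adjusted p = 0.161). The Sm protein genes SNRPD3 and SNRPD1 had differences of 0.67 ± 0.44 and 0.72 ± 0.48 (adjusted p = 0.441 and 0.450).

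The 2 SF3A genes had differences of 0.34 ± 0.32 (SF3A1) and 0.38 ± 0.41 (SF3A3), with adjusted p-values of 0.617 and 0.663. In the SF3B complex the largest difference was that of SF3B1, the subunit that contacts the branch point, with 11.37, 11.53, 11.45 and 11.10 on the nRBC arrays, against 11.03, 10.80, 10.87 and 10.67 on the RBC arrays. The lowest nRBC array was above the highest RBC array (difference 0.52 ± 0.32, adjusted p = 0.408), although its second probe set had a difference of -0.48. SF3B3 had 0.47 ± 0.44 and SF3B5 0.29 ± 0.40 (adjusted p = 0.604 and 0.738), and SF3B3 likewise had -0.52 in its second probe set.

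The PRPF family had the lowest median, -0.42, with a negative difference in 7 of 9 genes. This direction reversed without quantile normalization (median 0.12, 7 of 9 positive), but not under median scaling (median -0.15, 6 of 9 negative). In the values reported, most probe sets of the array were negative as well, 22684 of all 38439 and 4227 of the 6595 Present on every blood array. PRPF6, a bridging protein of the tri-snRNP, had 9.47, 9.91, 9.92 and 9.16 on the nRBC arrays, against 10.30, 10.17, 10.14 and 10.00 on the RBC arrays. These values did not overlap, and the difference of -0.54 ± 0.34 did not pass (adjusted p = 0.427). PRPF18, which acts in the second catalytic step, had 8.16, 8.47, 7.85 and 8.42 on the nRBC arrays, against 9.30, 8.95, 8.97 and 8.39 on the RBC arrays (difference -0.68 ± 0.36, adjusted p = 0.338). PRPF8, the protein at the centre of the spliceosome, had a positive difference of 0.46 ± 0.35 (adjusted p = 0.514).

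In all, every nRBC array was above every RBC array in 5 of the 50 genes (HNRNPLL, HNRNPU, SF3B1, PRPF8 and SRSF5A), against 7.97% of all probe sets, and below in 3 (HNRNPDL, PRPF6 and PRPF3), against 6.79%. When the stages were tested apart, 0 of the 50 genes passed at E6, where 1.68% of all probe sets passed (1.57% higher and 0.109% lower in nRBC), and 0 at E4, where 1.51% passed (1.42% higher and 0.0937% lower). At an unadjusted p under 0.05 the 50 genes also had 0 at both stages, against 8.6% higher and 5.83% lower of all probe sets at E6 and 7.77% higher and 5.04% lower at E4. The median difference was 0.37 at E6 and 0.11 at E4, and it was -0.04 at E6 without E6 nRBC replicate 2.

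Genes of the splicing machinery outside these families were also read. Of 103 further splicing genes listed, 81 were measured and 62 were Present on all blood arrays. Against the 4.56% and 0.809% of all probe sets, 3 were higher in nRBC and 0 were lower, with a median difference of 0.04. None of 52 core and associated factors passed. SRPK2, a kinase that phosphorylates SR proteins, had 9.36 and 10.27 on the E6 nRBC arrays and 9.51 and 10.08 on the E4 nRBC arrays, against 7.36 and 6.45 on the E6 RBC arrays and 6.11 and 6.67 on the E4 RBC arrays. It was higher in nRBC by 3.16 ± 0.41, that is 8.94-fold (adjusted p = 0.00236), with Present calls on every blood array. No SR protein gene passed beside it.

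The remaining genes that passed regulate alternative exons. MBNL3, a muscleblind-like RNA-binding protein, had 9.18, 8.10, 8.13 and 8.32 on the nRBC arrays, against 6.55, 5.93, 5.07 and 6.29 on the RBC arrays, a rise of 2.48 ± 0.45 (adjusted p = 0.0122). NOVA1, known in mammals as a neuronal splicing regulator, had 6.54, 5.38, 6.86 and 6.94 on the nRBC arrays, against 1.91, 4.29, 1.96 and 1.05 on the RBC arrays. It passed the test (adjusted p = 0.00872), but was Present on only 2 nRBC arrays and on no RBC array. Its nRBC mean was 9.06-fold above the RBC limits. On E6 RBC replicate 2 the limit was its own signal (4.29), so that this fold is not a lower bound. Other probe sets of NOVA1 and SRPK2 were called Present on 2 blood arrays or fewer and did not pass, whereas a second probe set of MBNL3 passed with 2.27 ± 0.45 (adjusted p = 0.0186). The other 3 probe sets of MBNL3 did not pass, with differences of 0.99, 1.25 and 0.11 (adjusted p = 0.284, 0.367 and 0.938).

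Markers of other cell types were higher in nRBC as well. They comprised 4 of 5 measured thrombocyte markers, 6 of 9 leukocyte and macrophage markers, 4 of 8 endothelial markers, 7 of 9 fibroblast and matrix markers and 8 of 14 cardiac muscle markers, and none was lower. The summed linear signal of the fibroblast and matrix markers was 3259 to 8537 on the nRBC arrays, 147 to 240 on the RBC arrays and 26377 in the heart. That of the cardiac muscle markers was 1281 to 6216 on the nRBC arrays, 183 to 262 on the RBC arrays and 73879 in the heart. Of 17 red cell markers listed, 9 were measured. None of these 9 passed, and all 9 were Present on every blood array, with sums of 43893 to 65303 in nRBC and 54395 to 63273 in RBC. The globins HBAD, HBE, HBZ and HBA1 made up most of these sums. Their log2 signals were 12.97 to 13.77 on the blood arrays, and whether a difference could show at that level was not tested. The differences of these 4 globins were -0.15, 0.13, -0.06 and 0.02, while EPB42, SPTB, ANK1, TAL1 and SLC4A1 had -1.15, -1.43, -1.13, -0.77 and -0.67. The authors' QPCR found hemoglobins significantly higher in RBC. In the heart SRPK2 had 9.91, NOVA1 7.43 and MBNL3 7.21. The part of these cells in the differences was not tested.

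Between the stages no probe set passed the test, so that 0% of all probe sets and 0 of the 50 splicing factor genes were called in nRBC, in RBC and for the difference of the stage effect between the fractions (limma, 2 arrays per group). At an unadjusted p under 0.05 the 50 genes had 0 in each of these, against 2.32% higher and 2.09% lower of all probe sets in nRBC and 3.69% higher and 4.26% lower in RBC, and 2.74% and 2.55% for the difference. In RBC, 35 of the 50 genes had a negative difference (E6 minus E4), with a median of -0.28 against 0.02 for all probe sets. Both E6 RBC arrays were below both E4 RBC arrays in 23 of the 50 genes (46%), against 19.7% of all probe sets and 30.1% of those Present on all blood arrays, and above in 4, against 19.1% of all probe sets. The same held for 25 of the 83 other probe sets (30.1%), and for 16 of the 37 among them that were Present on all blood arrays (43.2%).

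The 23 genes comprised 8 of 11 SRSF, 7 of 10 SNRP and 6 of 13 HNRNP genes, but 1 of 5 SF3B, 1 of 9 PRPF and 0 of 2 SF3A genes. SRSF7L had 10.32 and 10.47 on the E6 RBC arrays, against 11.23 and 11.46 on the E4 RBC arrays (difference -0.95 ± 0.51, adjusted p = 0.705). SNRPGP15, as the annotation names it, had 9.35 and 9.20 on the E6 RBC arrays, against 10.38 and 10.70 on the E4 RBC arrays (difference -1.26 ± 0.61, adjusted p = 0.681). SNRPA1, which encodes a U2 snRNP protein, had 8.56 and 8.82 on the E6 RBC arrays, against 10.40 and 9.61 on the E4 RBC arrays (difference -1.32 ± 0.73, adjusted p = 0.714). In each of them the lower E4 array was above the higher E6 array. The GAPDH ratio of these arrays was 9.51 and 10.9 at E6 and 9.44 and 11.1 at E4.

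SRSF5 went the other way, and did so in both fractions. Its difference between E6 and E4 was 1.47 ± 0.70 in RBC (adjusted p = 0.675) and 1.42 ± 0.70 in nRBC (adjusted p = 0.9997). The lowest E6 array of each fraction was above the highest E4 array of that fraction. The E6 nRBC arrays were far apart, at 9.56 on replicate 1 and 7.83 on replicate 2. With an array left out the difference was 0.56 to 2.29 in nRBC and 1.07 to 1.86 in RBC.

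In nRBC 30 of the 50 genes had a negative stage difference, with a median of -0.11. Both E6 nRBC arrays were below both E4 nRBC arrays in 10 genes, against 16.1% of all probe sets, and above in 3, against 17.1%. SF3A3 had 9.41 and 10.10 on the E6 nRBC arrays, against 10.86 and 10.73 on the E4 nRBC arrays (difference -1.04 ± 0.50, adjusted p = 0.9997). PRPF38A, a protein of the activating spliceosome, had 5.95 and 7.13 on the E6 nRBC arrays, against 7.73 and 7.36 on the E4 nRBC arrays (difference -1.01 ± 0.58, adjusted p = 0.9997). These differences were larger than the spread of the E4 arrays but the E6 arrays were themselves far apart.

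**Figure D4:**
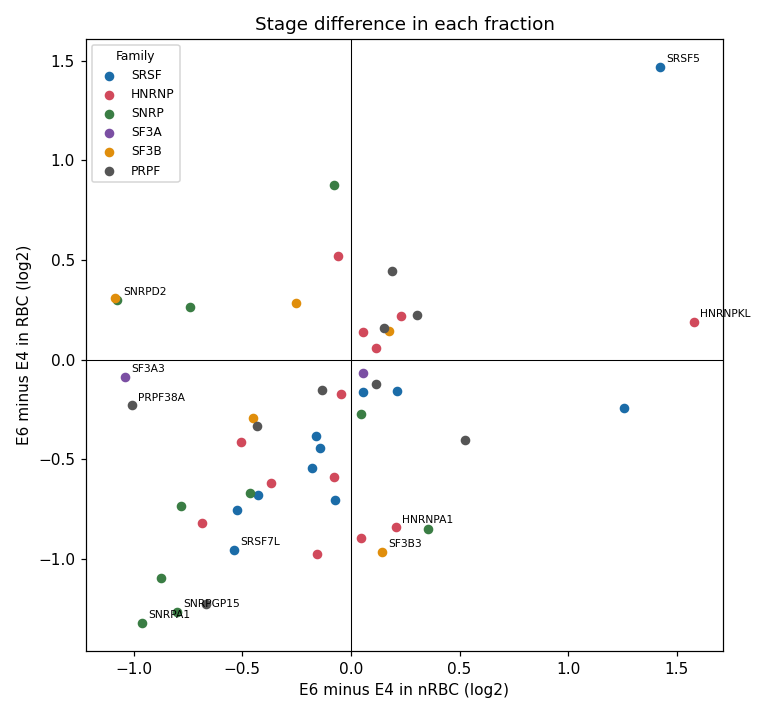
Difference between E6 and E4 in nRBC (x axis, log2) and in RBC (y axis, log2) for the 50 splicing factor genes, coloured by family, with the named genes labelled. 35 points lie below zero on the RBC axis and 30 lie left of zero on the nRBC axis, while SRSF5 is the single gene above 1 on both axes.

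HNRNPKL, which the current annotation places on the W chromosome, and HNRNPK, its counterpart on the Z chromosome, parted on E6 nRBC replicate 1. HNRNPKL had 10.30 and 8.90 on the E6 nRBC arrays, against 8.11 and 7.93 on the E4 nRBC arrays (difference 1.58 ± 0.74, adjusted p = 0.9997). HNRNPK had 9.44 and 11.58 on the E6 nRBC arrays, against 11.21 and 11.18 on the E4 nRBC arrays. Replicate 1 thus held the highest HNRNPKL and the lowest HNRNPK value of all blood arrays. On that array 222 other Z genes detected throughout the blood arrays had a median of -0.54 relative to the other nRBC arrays, 5 other W genes had 0.59, and 4027 genes on other chromosomes had -0.11. On E6 RBC replicate 2 the direction was the same but the values were smaller, -0.19 for the Z genes and 0.28 for the W genes. Replicate 1 of both E4 fractions had shifts in the opposite direction. E4 nRBC replicate 1 had 0.43 for the Z genes, -0.84 for the W genes and 0.09 for the others. On E4 RBC replicate 1 the values were 0.30, -0.64 and 0.08. The sexes of the pooled embryos were not given in the sources used here, and their part in these values was not tested.

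The stage effect differed most between the fractions, by p-value, in HNRNPA1 (nRBC minus RBC 1.05 ± 0.71), SF3A3 (-0.96 ± 0.71), SNRPD2 (-1.38 ± 1.03) and SF3B3 (1.11 ± 0.83), each with an adjusted p of 0.99995. HNRNPA1 had 11.38 and 12.14 on the E6 nRBC arrays and 11.62 and 11.48 on the E4 nRBC arrays, against 10.96 and 10.87 on the E6 RBC arrays and 11.64 and 11.87 on the E4 RBC arrays, so that the stages were apart in RBC and overlapped in nRBC.

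E6 nRBC replicate 1 held the lowest nRBC value in 27 of the 50 genes, as it did for 39.4% of probe sets called Present throughout the blood arrays. The median deviation of the 50 genes from the other nRBC arrays was -0.36 on it, against -0.09 for those probe sets, and 0.16 to 0.26 on the other nRBC arrays. In 30 of the 50 genes (60%) its signal was nearer to the mean of the E6 RBC arrays than to the other E6 nRBC array, as it was for 50.9% of the detected probe sets. The summed linear signal of all 6 marker lists was higher on it than on the other nRBC arrays. It was 65303 against 43893 to 46807 for red cell, 20857 against 10837 to 12899 for thrombocyte, 3706 against 2293 to 2388 for leukocyte and macrophage, 899 against 471 to 778 for endothelial, 8537 against 3259 to 7858 for fibroblast and matrix and 6216 against 1281 to 2050 for cardiac muscle markers. The part of these cells, or of the high GAPDH and beta-actin ratios of this array (12.7 and 12.4), was not tested. Without this array the median stage difference of the 50 genes in nRBC was 0.10, and without E6 nRBC replicate 2 it was -0.39. No gene of the 50 passed between the fractions with either array left out.

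**Figure D5:**
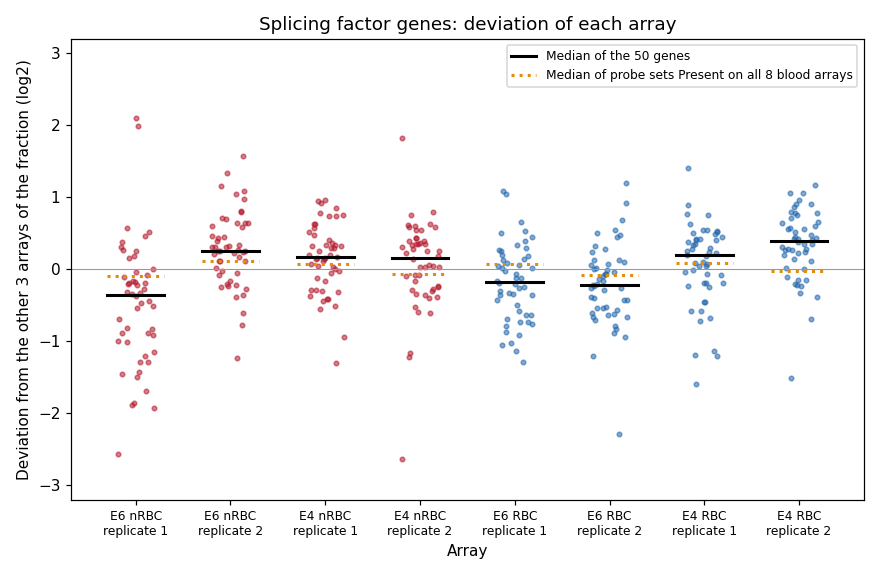
Deviation (y axis, log2) of each of the 50 splicing factor genes on each blood array (x axis) from the mean of the other 3 arrays of its fraction, with the median of the 50 genes (black bar) and of probe sets detected throughout the blood arrays (dotted bar). The black bar is lowest on E6 nRBC replicate 1, at -0.36.

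The heart, with 1 array and no test, lay mostly within the range of the blood arrays. Its signal was within the blood range in 41 of the 50 genes (82%), as in 67.2% of all probe sets, below all blood arrays in 8 (against 18.3%) and above all of them in 1 (against 14.5%). Under median scaling 3 genes were below and 3 above, against 14.5% and 18.1% of all probe sets. The nRBC mean was above the heart in 34 genes (68%), against 51.4% of all probe sets and 64.2% of those Present on all blood arrays. The RBC mean was above it in 21 (42%), against 56.3% and 66.7%. The medians were 0.11 and -0.07, against 0.04 and 0.22 for all probe sets. Under median scaling they were -0.07 and -0.19, against -0.15 and 0.08. By family, all 13 HNRNP genes had the heart within the blood range, or 12 under median scaling. Of the 9 PRPF genes 4 were lower in the heart than on every blood array, or 2 under median scaling, and the PRPF medians above the heart were 0.57 in nRBC and 1.10 in RBC, or 0.27 and 0.59 under median scaling.

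SNRPD3 was the single gene brighter in the heart than on every blood array, joined by HNRNPM and SRSF7L under median scaling. It stood at 10.34, 11.49, 11.86 and 11.54 in nRBC and 10.36, 10.18, 10.95 and 11.05 in RBC, against 11.99 in the heart. Next in size below the heart were the blood means of HNRNPKL (8.50 against 9.34), HNRNPM (12.35 against 12.94) and HNRNPLL (7.91 against 8.50), of which HNRNPLL was near the heart in nRBC (8.43) and below it in RBC (7.40). The blood means furthest above the heart were those of PRPF3, a U4/U6 snRNP protein (7.52 against 6.40), PRPF38A (7.25 against 6.15) and SRSF5 (8.49 against 7.50). PRPF3 had 7.47, 7.32, 7.12 and 7.44 on the nRBC arrays and 7.74, 7.53, 7.64 and 7.88 on the RBC arrays, all above the heart. SNRPB2 had a larger difference from the heart but was called Present on no array, the heart included.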

How the data were processed

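RNA of 4 nRBC, 4 RBC and 1 heart sample was amplified in 2 cycles from 100 ng by the authors, per their methods, and hybridized to the Affymetrix chicken array. The deposited intensity values are MAS5 signals on a linear scale that had not been scaled between arrays, and the deposited detection calls (other) are Present, Marginal or Absent. The version of MAS5 was not found in the sources read. The authors' series matrix holds log2 values of the same signals minus a constant for each array, and was used as an alternative only. The heart is E6 in its sample label and E4 in a table heading, and is treated as E6. Duplicate arrays came from separate pools of embryos, and the methods do not say whether both fractions were taken from 1 pool.

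From 38535 probe sets 96 controls were left out. Before the log2, 0.1 replaced each of 11 zero signals of the blood arrays, and the 8 blood arrays were then quantile normalized together. limma 3.58.1 in R 4.3.3 (lmFit, eBayes) was fitted to all 38439 probe sets, with 4 nRBC against 4 RBC arrays for the fractions and a mean per stage and fraction for the stages. A probe set passed where its p-value, adjusted over the whole table after Benjamini-Hochberg, was under 0.05. SAM, the test in the authors' methods, was not run, as it permutes the arrays. The fit was tested on simulated data. All 50 symbols were found among RefSeq genes of the GRCg7b assembly, which gave chromosomes and neighbours. A further 2 probe sets annotated with several symbols were left out. The number of arrays limits the precision, and values below background carry no order.

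The members and lists were chosen with earlier results of these data known. Named are members that passed, 3 per family by p, 4 per stage contrast, 4 in each direction against the heart, members Present on no array of a fraction and genes of the wider list that passed. SRSF5A, SRSF7, PRPF8, PRPF4B and HNRNPK were added after their values were seen. Alternatives were no quantile normalization, median scaling, quantile normalization with the heart, 16 added to each signal, a filter that keeps probe sets with 2 or more Present calls in blood, the series matrix, limma's intensity trend, array scale or replicate number as a block, stage as a term, the methods' t-test, other thresholds, other probe sets and leaving out each array.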

Additional observations from a re-analysis of the deposited data

Results flagged for a closer look

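Within the 4 arrays of a fraction, 70 groups of values were examined for an array far from the rest (Dixon's ratio past its 95% critical value), and 3 were found, about as many as 1 in 20 groups gives by chance. PRPF4 had a log2 signal of 2.37 on E6 RBC replicate 2, against 4.58 to 4.75 on the other RBC arrays, and its difference between nRBC and RBC was 0.35 without that array, against 0.92 with it. SNRPN had 8.18 on E6 nRBC replicate 1, against 9.85 to 10.18 on the other nRBC arrays. SRSF4 had 1.57 on E4 nRBC replicate 2, against 3.93 to 4.41 on the other nRBC arrays, and its difference was -0.18 without that array, against -0.84 with it. PRPF4 and SRSF4 were not called Present on the arrays concerned. The GAPDH and beta-actin ratios of E6 nRBC replicate 1 were examined as well and were not flagged.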

How the results depend on the processing

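No splicing factor gene passed between nRBC and RBC without quantile normalization, under median scaling, with the heart in the quantiles, with the series matrix, with stage or array scale in the model, within the 5 arrays of many low signals, or with any array left out (0 in each direction). HNRNPU, 1 gene, passed with 16 added to each signal (adjusted p = 0.0332) and with an intensity trend (adjusted p = 0.0408). The adjusted p of this brightest probe set was up to 0.698 over the other alternatives. With the second brightest probe sets 2 of 37 genes passed, HNRNPU among them (adjusted p = 0.0186), against 5.37% of all probe sets. The methods' t-test at an unadjusted p under 0.05 gave 3 higher and 4 lower of the 50 genes, against 7560 of all 38439 probe sets in either direction. After Benjamini-Hochberg it gave 0 of the 50 genes, against 1629 probe sets. The median difference between the fractions was 0.16 to 0.36 with an array left out and -0.0115 over the median of each gene's probe sets. Without quantile normalization the median of all probe sets moved to 0.02, and the splicing factor genes were 0.36 above it, against 0.48 above it in the values reported; their median at E4 was 0.45, and their stage medians were -0.81 in nRBC (all probe sets -0.67), -0.71 in RBC (-0.08) and -0.0778 for the difference (-0.49). With an array left out the medians were -0.0364 to 0.58 at E6 and 0.06 to 0.23 at E4 between the fractions, -0.39 to 0.10 in nRBC and -0.44 to -0.22 in RBC between the stages, and -0.13 to 0.45 for the difference; the highest and lowest of these for nRBC came without E6 nRBC replicate 1 and replicate 2. Counts of genes with both E6 arrays below both E4 arrays were, in RBC, 18 without quantile normalization (13.9% of all probe sets), 21 under median scaling (11.4%) and 23 as reported (19.7%), and in nRBC 20 (34%), 9 (14.6%) and 10 (16.1%), settings added after seeing the data. Under median scaling 18 genes had the nRBC mean above the heart, against 34. Within the families, signs between the fractions were followed only for the genes named by p. Among these, the sign reversed within the 5 arrays of many low signals for SF3B5 (-0.19) and SRSF4 (0.21). It reversed in the second brightest probe set for HNRNPDL (0.19), SF3B1 (-0.48) and SF3B3 (-0.52). Of the 50 genes, 33 had a positive difference as reported, 41 without quantile normalization and 30 under median scaling. Among the wider list, NOVA1 did not pass with the replicate block (adjusted p = 0.0592, lowest 0.00192 over the alternatives), MBNL3 (0.146, lowest 0.00114) and SRPK2 (0.0851, lowest 5.69e-05) did not pass within the 5 arrays, and all 3 passed with any array left out. Deviations of arrays with the same number correlated 0.08 at E4 and -0.05 at E6. With 2 arrays per group these values cannot exclude a pairing, and a shared pool is not stated in the methods. With the replicate block 0 splicing factor genes and 1307 probe sets were called. All probe sets gave 2064 calls, and 3333 with 16 added, 2908 with an intensity trend, 696 within the 5 arrays and 1499 without quantile normalization. The causes were not tested. With 2 arrays per stage and fraction, the 95% intervals of the stage differences had a median half-width of 1.31 in each fraction. That of the difference between the fractions was 1.85. In each of these 0 of the 50 intervals lay within 1 of zero, so that stage differences of 1 were not excluded for any gene. Among the 50 genes, 2 were called Present on no blood array (SNRPB2 and SNRPF).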
